A study of Homo sapiens with 10 samples.

Results

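The genes described here are 10 plasma protein genes of the acute-phase and complement group, FGA, FGB, FGG, CP, C3, CFB, SERPINA1, SERPINA3, LCN2 and HP. They were matched by symbol to the Ensembl identifiers of the input tables, which hold 58037 genes, and all 10 were among the 16406 genes tested. The genes were chosen by their values in the same comparison of A549/DDP with A549 inputs that is given below, so their fold changes, and the calls that the fit over all genes gives them, are a description and not a test. A549 is a human lung adenocarcinoma line, and A549/DDP is its derivative that resists cisplatin (DDP). Both were grown in RPMI medium with serum and antibiotics for at most 10 passages, and neither group was labelled with a drug treatment at harvest. How A549/DDP was derived, and whether it is a clone, is not given in the sources used here. Each line had 2 input libraries of fragmented poly(A) RNA and 2 m6A-seq libraries, in which fragments were pulled down with an antibody against N6-methyladenosine. Nothing in the labels says that replicates came from separate cultures, so p-values measure the spread between these libraries, which may be technical.

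The acute-phase response is the change in secreted plasma proteins that follows infection or injury. It is known best from hepatocytes, where interleukin-6 acts through STAT3, and interleukin-1 acts through NF-kB and the C/EBP factors, on genes that liver-enriched factors such as HNF4 keep active. Airway epithelium also makes several of these proteins, among them C3, lipocalin 2 and the protease inhibitors of the serpin family. Fibrinogen, the precursor of the fibrin clot, is built from the alpha, beta and gamma chains that FGA, FGB and FGG encode, and all 3 chains are needed for its secretion.

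The 3 fibrinogen genes lie within 1 stretch of chromosome 4, where the files' build is hg38 and the RefSeq annotation used here is that of GRCh38.p14. FGB is at chr4:154562980-154572807 on the plus strand, FGA at chr4:154583126-154590742 and FGG at chr4:154604136-154612656, both on the minus strand. RefSeq promoter windows, from 250 bases before to 50 bases after the start, were at hand for 7 of the 10 members. Letters of 3 motifs were searched in them on both strands: TTCNNNGAA (STAT3), TTGCNNAA (C/EBP) and the 10-letter NF-kB consensus. Over all 35116 windows of the table these letters were in 7.66%, 10.5% and 0.558%, in that order. The C/EBP letters were in the windows of 3 of the 7 members (FGA, FGB and LCN2), the STAT3 letters in 2 (FGA and CFB) and the NF-kB letters in 0. FGB has 2 listed starts whose windows hold the same matches, and the window of the first start is shown. A match of letters is a description, not a bound site, and windows were not searched for weaker variants. The LCN2 window, for example, holds gggaatgtcc, which differs from the NF-kB letters at 1 position, so the count of 0 covers exact matches only. The 250 bases before the start are printed for the members with a window that were higher in A549/DDP, to show how the fibrinogen genes differ among themselves. Capitals mark the matches.
FGB, chr4:154562730-154562979, plus strand: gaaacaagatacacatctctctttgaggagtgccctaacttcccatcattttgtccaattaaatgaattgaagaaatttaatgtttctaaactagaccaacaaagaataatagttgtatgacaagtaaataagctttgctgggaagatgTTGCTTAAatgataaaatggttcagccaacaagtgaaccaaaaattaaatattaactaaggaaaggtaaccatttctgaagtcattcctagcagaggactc
FGA, chr4:154590743-154590992, minus strand: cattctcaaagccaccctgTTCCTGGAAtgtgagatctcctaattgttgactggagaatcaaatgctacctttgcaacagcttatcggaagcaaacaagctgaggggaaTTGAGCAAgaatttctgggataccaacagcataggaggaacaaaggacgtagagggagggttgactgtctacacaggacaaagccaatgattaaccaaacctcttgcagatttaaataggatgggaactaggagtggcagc
FGG, chr4:154612657-154612906, minus strand: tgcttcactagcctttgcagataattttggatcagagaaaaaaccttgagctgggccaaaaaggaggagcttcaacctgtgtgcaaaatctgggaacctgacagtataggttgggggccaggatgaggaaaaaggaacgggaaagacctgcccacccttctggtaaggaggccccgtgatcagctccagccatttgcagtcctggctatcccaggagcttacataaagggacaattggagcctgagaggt
CFB, chr6:31945845-31946094, plus strand: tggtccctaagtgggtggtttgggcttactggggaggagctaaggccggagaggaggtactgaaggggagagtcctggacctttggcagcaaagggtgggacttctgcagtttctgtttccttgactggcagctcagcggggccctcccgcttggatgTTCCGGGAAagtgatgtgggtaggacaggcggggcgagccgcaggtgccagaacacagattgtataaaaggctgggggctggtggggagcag
LCN2, chr9:128149203-128149452, plus strand: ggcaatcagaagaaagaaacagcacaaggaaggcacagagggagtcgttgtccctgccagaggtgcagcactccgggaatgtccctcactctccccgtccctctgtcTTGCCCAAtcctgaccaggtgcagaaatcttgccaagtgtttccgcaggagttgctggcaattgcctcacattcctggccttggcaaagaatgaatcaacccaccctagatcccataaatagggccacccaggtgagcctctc
The C/EBP letters began 101 bases before the start in FGB and 141 bases before it in FGA, and the STAT3 letters of FGA began 231 bases before it. FGG held none of the 3 motifs in this window. Whether any of these letters bears on the level of a gene was not tested.

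The 4 inputs held 29225501 to 35286514 expected counts. Levels are given as CPM (counts scaled to library size, with TMM factors) unless TPM is named, and 3 counts correspond to 0.0850 to 0.103 CPM. In bulk RNA, more cells that make a transcript and more transcript per cell cannot be told apart. Of the keratins of epithelium, KRT8 was abundant in all 4 inputs, at 2028 and 5231 TPM in A549 and at 9818 and 9891 TPM in A549/DDP, and KRT18 was at 1591 TPM or more in each. KRT19 went the other way, with 33.3 and 64.0 TPM in A549 and 9.24 and 0 TPM in A549/DDP. Of the 8 markers of lung or airway epithelium, SFTPC was listed at 0 in all 4 inputs, and NKX2-1 and SFTPB were below 1 TPM in each of them. These defining markers of lung epithelium, the labelled cell type, were thus at or near 0. The epithelial marker CDH1 was present, at 28.9 and 40.4 TPM in A549 and 226 and 114 TPM in A549/DDP. EPCAM was at 2.45 to 6.95 TPM in the 4 inputs. The 8 hepatocyte markers summed to 93.2 and 50 TPM in A549 replicates 1 and 2, to 507 TPM in the first A549/DDP library and to 122 TPM in the other. Markers of fibroblasts, leukocytes and endothelium summed to at most 20.1, 7.49 and 0.400 TPM in any input. None of the 8 hepatocyte markers was at 0 in all 4 inputs. APOA1, APOA2, CYP3A4 and CYP2E1 were listed at 0 in A549/DDP replicate 2, where CPS1 alone held 119 TPM of the sum. Albumin (ALB) was at 29.8 and 11.9 TPM in A549, at 167 TPM in replicate 1 of A549/DDP and at 0.860 TPM in its replicate 2. The A549/DDP inputs therefore stand apart in liver-type transcripts, and the members' differences, chain shares and lengths and the counts of genes called are given below with and without replicate 1. With it left out, A549/DDP is 1 library, the spread comes from the A549 libraries alone, and the lone library is assumed to vary as they do.

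Of the 10 genes, 7 were called higher in A549/DDP than in A549 (FGA, FGB, FGG, CP, C3, CFB and LCN2), 0 were called lower and 3 were not called (SERPINA1, SERPINA3 and HP). A gene was called at an adjusted p under 0.05 in edgeR's quasi-likelihood test over all genes tested, and 6.85% of these genes were called higher and 8.0% lower. The same 7 genes had both A549/DDP libraries above both A549 libraries, which 29.7% of all genes tested had. Since the members were chosen on this comparison, nothing is read from these shares. The median log2 fold change was 2.76 over the 10 genes and -0.00 over all genes tested. Without A549/DDP replicate 1, 6 members were called higher and 1, HP, was called lower, where the lone A549/DDP library held 1 count of HP. Without A549/DDP replicate 2 the log2 differences were 2.82 for HP and 2.81 for SERPINA1, and without A549 replicate 1 they were 2.92 and 2.89. The share of all genes called is not given for fits that leave out 1 library. Nothing is therefore read from changes in the number of members, or of genes in the lists below, that were called.

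FGA, the alpha chain of fibrinogen, was at 32.1 and 33.0 CPM in the A549 inputs and at 350 and 304 CPM in the A549/DDP inputs. The replicates of each line lay close together, and the lines differed by 3.33 ± 0.18 on the log2 scale (fitted value ± SE, n = 2 libraries a line), or 10.0-fold. FGG, the gamma chain, was at 13.6 and 9.90 CPM in A549 and at 130 and 122 CPM in A549/DDP, a difference of 3.42 ± 0.25 on the log2 scale, or 10.7-fold. FGB, the beta chain, was at 95.5 and 26.3 CPM in A549 and at 339 and 280 CPM in A549/DDP. Its A549 libraries differed 3.58-fold from each other on the log2(CPM + 0.5) scale, and a gap this large between the A549 replicates was met in 3.04% of the genes tested. The difference between the lines was therefore less certain for FGB than for the other 2 chains, at 2.34 ± 0.57 on the log2 scale, and it was 3.54 without A549 replicate 1 and 1.68 without A549 replicate 2. Without A549/DDP replicate 1, the library with high albumin, the log2 differences were 3.20 for FGA, 2.18 for FGB and 3.35 for FGG, against 3.42, 2.47 and 3.46 without A549/DDP replicate 2.

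CP encodes ceruloplasmin, the copper-carrying ferroxidase of plasma, and had the largest difference of the 10 genes. It was at 5.68 and 5.92 CPM in A549 and at 151 and 171 CPM in A549/DDP, so that both lines had close replicates and did not overlap. The log2 difference was 4.79 ± 0.22, or 27.7-fold, and stayed between 4.69 and 4.86 when any 1 library was left out. CP lies at chr3:149162414-149221829, where it overlaps HPS3. HPS3, at 30.5 and 45.8 CPM in A549 and 67.4 and 59.2 CPM in A549/DDP, was not called (log2 difference 0.73 ± 0.27, edgeR adjusted p = 0.123).

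C3, the central component of complement, lies at chr19:6677704-6720650 and was the most abundant of the 10 genes by CPM. Its level was 107 and 132 CPM in A549 and 575 and 542 CPM in A549/DDP, a log2 difference of 2.23 ± 0.18, which was 2.16 without A549/DDP replicate 1. CFB, complement factor B of the alternative pathway, was at 3.65 and 1.47 CPM in A549 and at 34.5 and 11.6 CPM in A549/DDP. The lines did not overlap, but the replicates of A549/DDP differed 2.89-fold on the log2(CPM + 0.5) scale, and the log2 difference of 3.17 ± 0.75 was 2.16 without A549/DDP replicate 1, where CFB was no longer called. CFB lies at chr6:31946095-31952084 in the complement gene cluster, 423 bases after C2 and 3 bases before NELFE. C2 was at 0.486 and 0.564 CPM in A549 and at 4.82 and 0.917 CPM in A549/DDP and was not called (edgeR adjusted p = 0.332).

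LCN2 encodes lipocalin 2, which binds bacterial siderophores and so withholds iron. The gene lies at chr9:128149453-128153453. Its level was 2.13 and 0.959 CPM in A549 and 15.4 and 26.1 CPM in A549/DDP. All A549/DDP values were above all A549 values, and the log2 difference was 3.75 ± 0.63, or 13.4-fold. Unlike CFB, LCN2 was higher in A549/DDP replicate 2 than in replicate 1, and its log2 difference was 4.06 without A549/DDP replicate 1.

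**Figure D1:**
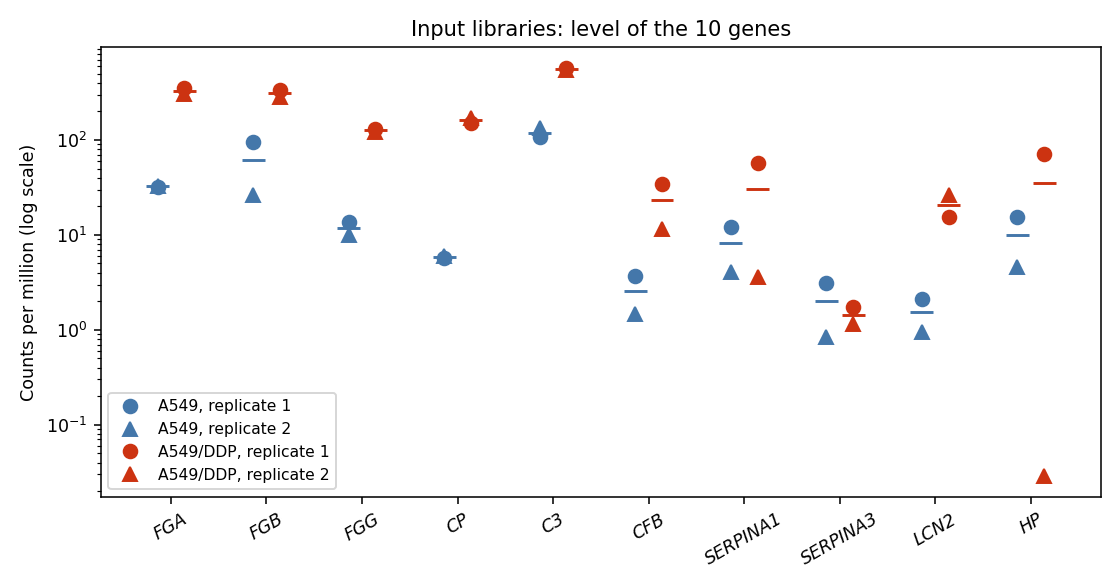
Level of the 10 genes in each input library, in CPM on a log axis, with circles for replicate 1, triangles for replicate 2 and a line at the mean of each pair (n = 2; no error bar is drawn because both values are shown). FGA, FGG, CP and C3 have close replicates, whereas HP runs from 0.0287 to 70.8 CPM within A549/DDP.

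The other 3 members did not separate the lines. HP encodes haptoglobin, which binds free haemoglobin, at chr16:72054505-72061055. It held 502 and 164 expected counts in the A549 inputs, 2100 in A549/DDP replicate 1 and only 1 in its replicate 2. In CPM this was 15.3 and 4.63 for A549 and 70.8 and 0.0287 for A549/DDP, a ratio of 2471 between the A549/DDP replicates with a 95% exact (Clopper-Pearson) interval of 443 to 97664 that covers counting error only. By log2(CPM + 0.5), HP had the highest excess of replicate 1 over replicate 2 among the 16406 genes, with rank 1. SERPINA1, which encodes alpha-1-antitrypsin, the main inhibitor of neutrophil elastase, at chr14:94376747-94390635, was at 12.2 and 4.06 CPM in A549 and at 57.4 and 3.61 CPM in A549/DDP. Its lowest value of all 4 was thus in A549/DDP, and the A549/DDP replicates differed 14.1-fold on the log2(CPM + 0.5) scale, a gap that 0.488% of genes reached. SERPINA3, at chr14:94612391-94624053, which encodes alpha-1-antichymotrypsin, was low in every library, at 3.13 and 0.846 CPM in A549 and 1.75 and 1.15 CPM in A549/DDP.

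The fitted log2 differences of these 3 genes had large errors, at 1.83 ± 1.96 for HP, 1.91 ± 1.18 for SERPINA1 and -0.45 ± 1.38 for SERPINA3. The error was above the size of the difference for HP and SERPINA3 and below it for SERPINA1. Without A549/DDP replicate 1 the values were -8.29 for HP and -1.19 for SERPINA1, and without A549/DDP replicate 2 they were 2.82 and 2.81. The value of -8.29 rests on a group with 1 count and depends on the prior count of the fit. HP and SERPINA1 followed albumin in 3 of the 4 libraries. HP was at 0.591, 0.554 and 0.544 of the TPM of ALB in A549 replicate 1, A549 replicate 2 and A549/DDP replicate 1, and SERPINA1 was at 0.416, 0.402 and 0.377. In A549/DDP replicate 2 the ratios were 0.0581 for HP and 4.94 for SERPINA1. FGA did not keep such a ratio, at 0.714, 2.37, 1.48 and 250 of the TPM of ALB in the 4 libraries, in the same order. FGB was at 4.45 and 4.64 of the TPM of ALB in the A549 libraries, 3.04 in replicate 1 of A549/DDP and 473 in its replicate 2. These ratios are given as values, and the part of the liver-type transcripts in the levels of HP, SERPINA1 and FGB was not tested.

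**Figure D2:**
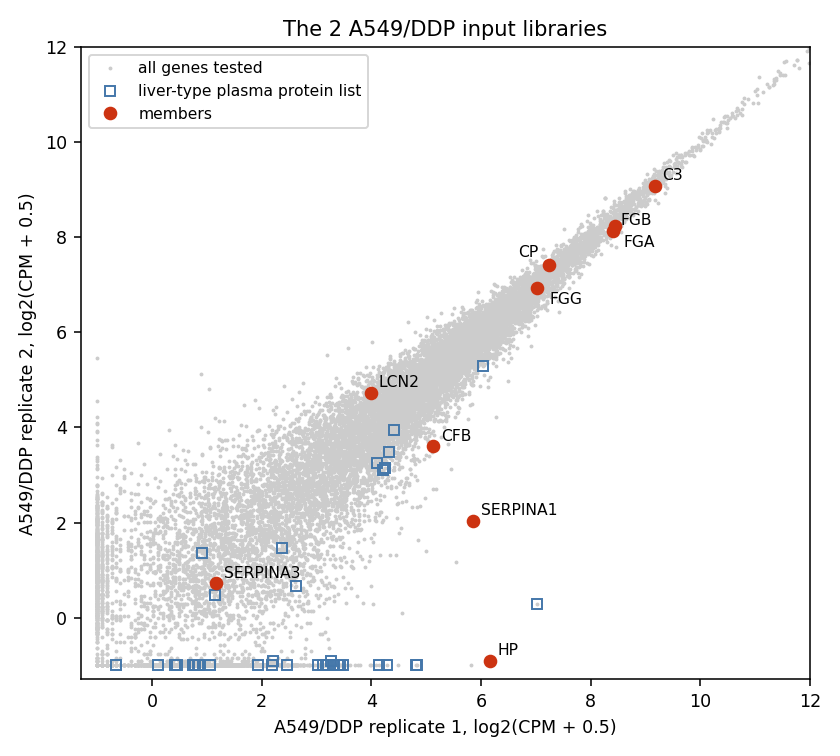
The A549/DDP inputs against each other, each gene at its log2(CPM + 0.5) in replicate 1 (x axis) and replicate 2 (y axis), with all genes tested in grey, the 10 members as filled circles and the liver-type plasma protein list as squares. FGA, FGB, FGG, CP and C3 lie on the diagonal, whereas HP and many squares lie at the bottom, high in replicate 1 and at 1 or 0 counts in replicate 2.

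Per transcript length, in TPM, the order of the members in both A549/DDP inputs began with FGB (507 and 407), C3 (378 and 346) and FGA (247 and 215). FGG (132 and 119) and CP (116 and 177) overlapped and could not be ordered. LCN2 (33.9 and 58.6), CFB (32.1 and 27.5) and SERPINA3 (2.09 and 1.54) followed, and HP (90.7 and 0.05) and SERPINA1 (62.7 and 4.25) had no stable place. In A549 the order was not stable at the top, where FGB (133 and 55.2) and C3 (76.6 and 111) crossed. By TPM, FGB was above 98.3% and 97.9% of the genes tested in A549/DDP and above 91.2% and 78.2% in A549.

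The balance of the fibrinogen chains was compared as each gene's share of the summed TPM of FGA, FGB and FGG. This sum was 167 and 94.3 TPM in A549 and 886 and 741 TPM in A549/DDP. FGB held the largest share in every library, with 79.4% and 58.6% in A549 and 57.2% and 54.9% in A549/DDP. FGA held 12.7% and 29.9% in A549 and 27.8% and 29.1% in A549/DDP, and FGG held 7.88% and 11.6% against 14.9% and 16.0%. The shares of A549/DDP and of A549 replicate 2 were near one another, and A549 replicate 1, where FGB was 6.23 times FGA, stood apart. The mean share of FGG was 5.75 percentage points higher in A549/DDP, and the difference for FGB was -12.9 points, each without overlap (exact permutation test over libraries, two-sided, p = 0.333, the smallest p that 2 against 2 libraries allow). For FGA the difference was 7.13 points (exact permutation p = 1.00), and it was -1.43 points without A549 replicate 1. The difference for FGB was -2.48 points without A549 replicate 1 and -23.3 points without A549 replicate 2, so its size rests on 1 library. By shares of the summed expected counts FGB overlapped between the lines, with 67.6% and 38.0% in A549 and 41.4% and 39.7% in A549/DDP (exact permutation p = 1.00). The differences were 7.76 points for FGA, -14.0 for FGB and 6.28 for FGG without A549/DDP replicate 1.

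**Figure D3:**
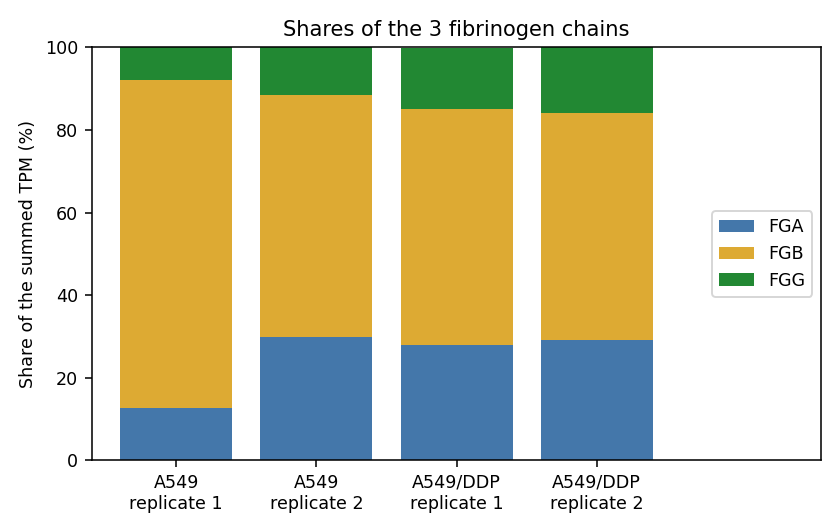
Share of each fibrinogen chain in the summed TPM of FGA, FGB and FGG, in percent, for each of the 4 input libraries (1 bar a library, no error). FGB is the largest part of each bar, at 79.4% in A549 replicate 1 and at 54.9% to 58.6% in the other 3 libraries.

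The tables also give, for each gene, a mean transcript length weighted by the abundance of its isoforms. It did not overlap between the lines for 5 of the 10 members, FGA, FGG, CP, C3 and CFB, against 30.5% of all genes tested. The length did not overlap for 9 members when A549/DDP replicate 1 was left out, with fewer libraries to overlap, against 58.1% of all genes tested. For CP the length was 1050 and 1327 bases in A549 and 2120 and 1631 bases in A549/DDP, and for C3 it was 2121 and 2080 bases against 2463 and 2556 bases. Both genes thus had longer mean transcripts in the line with more of the transcript. CFB went the other way, with 1924 and 1785 bases in A549 and 1778 and 788 bases in A549/DDP, but the A549/DDP replicates differed more than the lines. The exact permutation p was 0.333 for each of the 5, the smallest possible, and which isoforms were involved was not analysed here.

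The regulators of the acute-phase response were taken as a list of 36 genes, all tested, covering cytokine receptors, STAT3, C/EBP, liver-enriched and NF-kB factors. Of these, 7 rose and 9 fell in A549/DDP and 20 were not called, with a median log2 difference of -0.19. The shares were 19.4% higher and 25.0% lower, against 6.85% and 8.0% of all genes tested. The lists here and below were chosen with earlier results of these data known, so such shares are a description and not a test. Without A549/DDP replicate 1, 4 rose and 8 fell, and 11 of the 16 called genes were still called. TNFRSF1A, JAK1, STAT3, FOXA1 and NR1H4 were the 5 that were not. Among the liver-enriched factors, HNF4A was at 21.4 and 30.5 CPM in A549 and at 176 and 174 CPM in A549/DDP and rose by 2.75 ± 0.24 on the log2 scale (edgeR adjusted p = 0.00318). NR1H4, the bile acid receptor FXR, rose by 3.63 ± 0.82 (adjusted p = 0.0365), from 0.821 and 0.705 CPM to 12.3 and 6.68 CPM. Of the C/EBP genes, CEBPA rose by 2.49 ± 0.42 (adjusted p = 0.0160) and CEBPD by 2.04 ± 0.32 (adjusted p = 0.0128). CEBPB was not called, at 145 and 150 CPM against 109 and 114 CPM (-0.40 ± 0.16, adjusted p = 0.150).

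The 9 genes that fell were LIF, JAK1, STAT3, SOCS3, NFKB1, NFKB2, RELB, NFKBIA and TNFAIP3, all of cytokine, JAK-STAT or NF-kB signalling, whereas TNFRSF1A, the receptor of tumour necrosis factor, and FOXA1, a liver and lung factor, rose. NR5A2, another liver-enriched factor of the list, was at 24.9 and 24.5 CPM in A549 and at 0.0675 and 3.81 CPM in A549/DDP. It was not called (-3.66 ± 1.35, edgeR adjusted p = 0.121), but it was called lower under 7 of the alternative settings. Of the signalling genes, IL1R1 (1.01 ± 0.27, adjusted p = 0.0587) and TYK2 (0.74 ± 0.19, adjusted p = 0.0518) were higher in A549/DDP without being called. They were called higher under 8 and 7 of the alternative settings, and IL6, not called either, was called lower under 1. The names of LIF, JAK1, SOCS3, NFKB1, NFKBIA, TNFRSF1A, FOXA1, NR5A2, IL1R1, TYK2 and IL6 were added after their values were seen. STAT3 was at 298 and 304 CPM in A549 and at 158 and 190 CPM in A549/DDP, a log2 difference of -0.79 ± 0.17 (adjusted p = 0.0314), and the interleukin-6 receptor gene IL6R was not called, at 15.3 and 5.95 CPM against 11.2 and 11.4 CPM (0.09 ± 0.57, adjusted p = 0.944). NFKB2, which encodes the p100 precursor of non-canonical NF-kB, was at 608 and 433 CPM in A549 and 27.1 and 38.9 CPM in A549/DDP (-3.98 ± 0.28, adjusted p = 0.00231). Its partner RELB went from 169 and 96.3 CPM to 5.09 and 0.717 CPM (-5.53 ± 0.88, adjusted p = 0.0135). TNFAIP3, an inhibitor of NF-kB signalling that NF-kB itself induces, was at 61.7 and 55.1 CPM against 11.5 and 8.94 CPM (-2.51 ± 0.28, adjusted p = 0.00546). NFKBIZ, a nuclear cofactor of NF-kB at LCN2, was not called, at 20.6 and 16.2 CPM against 14.7 CPM in both A549/DDP inputs (-0.33 ± 0.35, adjusted p = 0.606).

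Complement genes other than C3 and CFB formed a list of 35, of which 24 were tested. In A549/DDP 10 of them rose, 0 fell and 14 were not called, and without A549/DDP replicate 1 the count was 8 higher and 0 lower. CD59, an inhibitor of the terminal pathway at 310 and 157 CPM in A549 and 118 and 108 CPM in A549/DDP, was not called (-1.04 ± 0.32, edgeR adjusted p = 0.0838), but it was called lower under 6 of the alternative settings, and its name was added after its values were seen. With all 4 inputs, 41.7% of the complement genes tested were called higher, against 6.85% of all genes tested. Their median log2 difference was 1.87. CFI, the protease that degrades activated C3, had the largest rise, from 0.517 and 0.508 CPM to 24.5 and 30.2 CPM (5.73 ± 0.48, edgeR adjusted p = 0.00295). Its membrane cofactor CD46 was at 87.3 and 99.3 CPM against 372 and 425 CPM (2.09 ± 0.18, adjusted p = 0.00296). CFD, the protease that cleaves factor B, rose by 2.15 ± 0.41 (adjusted p = 0.0224). VTN, which encodes vitronectin, an inhibitor of the terminal pathway, went from 6.50 and 6.21 CPM to 135 and 109 CPM (4.26 ± 0.24, adjusted p = 0.00156). C4A rose by 2.87 ± 0.55 (adjusted p = 0.0227), but it is nearly identical to C4B, so its reads may be split between them. The genes that rose thus included inhibitors of complement as well as components.

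The coagulation and fibrinolysis list held 34 genes besides fibrinogen. Of the 26 tested, 4 rose, 3 fell and 19 were not called, and without A549/DDP replicate 1, 3 rose and 3 fell. With all 4 inputs the shares were 15.4% higher and 11.5% lower, against 6.85% and 8.0% of all genes tested. F2 encodes prothrombin, the precursor of the protease that cleaves fibrinogen. F2 went from 0.942 and 0.959 CPM to 8.50 and 9.66 CPM (3.25 ± 0.77, edgeR adjusted p = 0.0413). F5, the cofactor of prothrombin activation, was at 2.10 and 0.169 CPM in A549 and at 58.0 and 39.6 CPM in A549/DDP (5.43 ± 1.02, adjusted p = 0.0214). Its second A549 value was under the 0.292 CPM of the filter, so F5 was tested only because of its level in A549/DDP. Nothing is read from its being called higher. FGL1, a secreted relative of the fibrinogen chains made mainly by liver, was at 7.78 and 7.08 CPM against 84.5 and 70.8 CPM (3.38 ± 0.26, adjusted p = 0.00237), a difference close to that of FGA and FGG. Among the genes that fell, TFPI, the inhibitor of the tissue factor pathway, had a log2 value of -2.28 ± 0.36 (adjusted p = 0.0130), and the protease receptor gene F2RL1 had a log2 value of -1.56 ± 0.27 (adjusted p = 0.0178).

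Other liver-type plasma proteins were a list of 36 genes. Of the 27 tested, 3 rose, 0 fell and 24 were not called, at a median log2 difference of 1.99. This median uses both A549/DDP inputs and is not given without replicate 1. Many genes of the list were near 0 in replicate 2, so it does not describe a rise seen in both libraries. The share called higher was 11.1%, against 6.85% of all genes tested. RBP4, the carrier of retinol, was at 3.98 and 1.92 CPM in A549 and at 65.0 and 38.6 CPM in A549/DDP (4.13 ± 0.51, edgeR adjusted p = 0.00704). ITIH2, a heavy chain of inter-alpha-trypsin inhibitor, rose by 3.94 ± 0.56 (adjusted p = 0.0102), and AGT, which encodes angiotensinogen, by 3.22 ± 0.82 (adjusted p = 0.0498), a call that was lost without A549/DDP replicate 1. Of the 36 genes, 15 had at least 100 expected counts in A549/DDP replicate 1 and at most 3 in replicate 2, and 0 had the reverse. Among all genes tested, 1.13% met this rule. HP met it, and so did APOA1 and APOA2, whereas no other of the 10 members did. Without A549/DDP replicate 1, 2 genes of the list were called higher and 3 lower, and without replicate 2, 14 were called higher. The list thus held genes such as RBP4 and ITIH2, high in both A549/DDP inputs as FGA, FGG and CP were, beside genes that, like HP, were high in replicate 1 of A549/DDP and near 0 in replicate 2.

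Relatives of SERPINA1 and SERPINA3 of serpin clade A formed a list of 9 genes, of which 1, SERPINA6, which encodes corticosteroid-binding globulin, passed the filter. It was at 0.122 and 0.0282 CPM in A549, the second value below 3 counts, and at 4.22 and 8.54 CPM in A549/DDP. Both A549 values were under the 0.292 CPM of the filter, so SERPINA6 was tested only because of its level in A549/DDP, and nothing is read from its being called higher. The call was kept without A549/DDP replicate 1 and lost without its replicate 2. SERPINA6 is the next protein-coding gene on one side of SERPINA1 on chromosome 14, at 53411 bases, with SERPINA11 on the other side at 51829 bases. The level of SERPINA6 was higher in A549/DDP replicate 2, the library in which SERPINA1 was low.

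**Figure D4:**
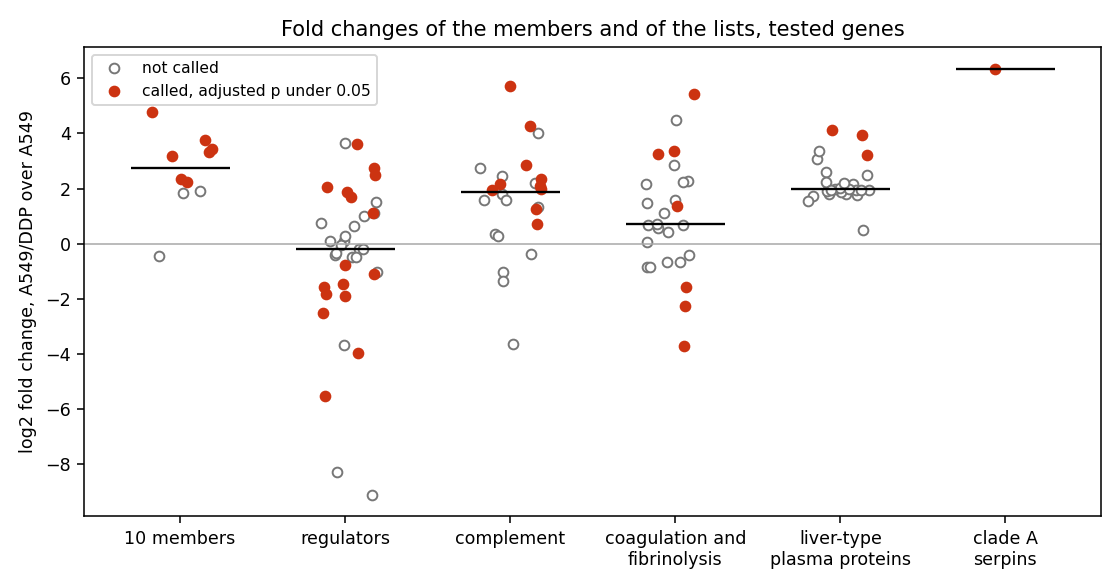
Log2 fold change of A549/DDP over A549 inputs for the tested genes of each list, 1 point a gene, filled where the edgeR adjusted p was under 0.05, with a line at the median. The members and the complement and liver-type lists have medians of 2.76, 1.87 and 1.99, and the regulators spread to both sides of 0 with a median of -0.19. The medians use both A549/DDP inputs. Of the 36 liver-type genes, 15 had at least 100 counts in A549/DDP replicate 1 and at most 3 in replicate 2.

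The fibrinogen genes were also compared with their surroundings. PLRG1, a splicing factor gene 12580 bases before FGB, fell, from 130 and 81.4 CPM in A549 to 42.8 and 54.4 CPM in A549/DDP (log2 value -1.12 ± 0.28, edgeR adjusted p = 0.0494). LRAT, 128182 bases beyond FGG, was at or under 0.0337 CPM in all 4 inputs and was not tested. The high level in A549/DDP was therefore seen at the 3 fibrinogen genes and not at the next gene on either side. NELFE next to CFB (-0.14 ± 0.30, adjusted p = 0.823) and GPR108 next to C3 (-0.02 ± 0.25, adjusted p = 0.974) were not called, and neither were HLTF and TM4SF18 on the sides of CP, PTGES2 and BBLN beside LCN2, or DHODH beside HP. TNFSF14, on the other side of C3, was at 0 in both A549 inputs and at 0.337 and 1.38 CPM in A549/DDP. SERPINA11, SERPINA5, GSC and HPR, beside SERPINA1, SERPINA3 and HP, did not pass the filter. HPR is a near copy of HP and was at or under 0.843 CPM in all 4 inputs, so few of the reads were assigned to it.

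The 5 genes whose pattern over the 4 inputs was most like the mean of FGA, FGB and FGG were ADH1C, RAET1G, CDX2, DDIT4L and ADGRG1. Likeness was the Euclidean distance between log2(CPM + 0.5) values centred on each gene's mean over the 4 inputs, and it was 0.168 for ADH1C and 0.246 for ADGRG1. ADH1C, an alcohol dehydrogenase, was at 0.517 and 0.197 CPM in A549 and at 6.78 and 5.82 CPM in A549/DDP. ADGRG1, an adhesion receptor, was at 46.6 and 31.3 CPM against 401 and 363 CPM. CDX2, the intestinal transcription factor, was at 0.365 and 0 CPM against 6.75 and 4.96 CPM. ADH1C, RAET1G, CDX2 and DDIT4L each had an A549 library under the 0.292 CPM of the filter. They were tested only because of their level in A549/DDP, so nothing is read from their likeness. Their fitted log2 differences, from 4.13 to 4.98, were above the 2.34 to 3.42 of the fibrinogen genes, and the 0.5 added to CPM reduces differences at such low levels. Among the members the distance to this mean was 0.363 for FGG, 0.596 for FGA, 0.728 for LCN2 and 0.919 for FGB, and it was largest for HP, at 6.11.

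The m6A-seq lists were searched for peaks of the 10 genes. The lists held 26320 and 14576 called peaks for A549 replicates 1 and 2 and 27244 and 10661 for A549/DDP, they were called per library, and they give no read depth. Peaks were found for 4 of the 10 members, FGA, FGB, FGG and LCN2, with 29 peaks in all, every one inside the RefSeq span of its gene. A peak in both A549 lists was found for 2 members, FGA and FGB, against 27.1% of the genes tested in the inputs. A peak in both A549/DDP lists was found for 3, FGA, FGB and LCN2, against 19.5%. With each list held to its 10661 peaks of lowest p, these counts were 0 for A549 and 1 for A549/DDP, so they depend on the length of the lists. The other 6 members had a peak in none of the 4 lists, as had 43.0% of the genes tested. Among genes at 50 TPM or more in both A549/DDP inputs, 16.2% had no peak in any list. Of the 5 members at that level, CP and C3 had none, so C3, the most abundant member by counts, carried no called peak.

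FGA had 1 and 4 peaks in the lists of A549 replicates 1 and 2, and 5 and 2 in those of A549/DDP. The lists give peaks as exon blocks of a gene, and which exon or untranslated region each block lies in was not analysed here. Merged where exon blocks shared at least 1 base, 1 region of FGA was present in all 4 lists, at chr4:154585727-154586914, 3828 to 5015 bases from the start of the gene. In A549 replicate 1 it was 1 peak of 1188 bases in 1 exon block, and in the other lists it was split into 1 to 3 shorter peaks. Farther along FGA, a region at chr4:154585381-154585628 was called in both A549/DDP lists and in neither A549 list. Whether this reflects methylation or the 10.0-fold higher level of FGA in A549/DDP was not tested.

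FGB had 3 peaks and 1 peak in the A549 lists and 2 and 3 in the A549/DDP lists, and no region was in all 4. The region at chr4:154565846-154566728 was called in 3 lists, with A549 replicate 2 lacking it, and the region at chr4:154569778-154570692 was called in 3 lists, with A549/DDP replicate 1 lacking it. FGG, next to them, had 4 peaks in A549/DDP replicate 1 and none in the other lists, although A549/DDP replicate 2 held as much FGG, with 119 TPM against 132 TPM. LCN2 had 0 and 1 peaks in the A549 lists and 2 and 1 in the A549/DDP lists. Its region at chr9:128151696-128153205 was in both A549/DDP lists, with p-values of 3.3e-05 and 0.00018 in the deposited lists. Of the 13 merged regions of the 4 genes, 2 were in both A549 lists, 4 in both A549/DDP lists and 1 in all 4. With peaks at a deposited p of at most 1e-05 only, 0 regions were in both lists of either line, so the shared regions rest on peaks of weaker p-values in at least 1 list.

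**Figure D5:**
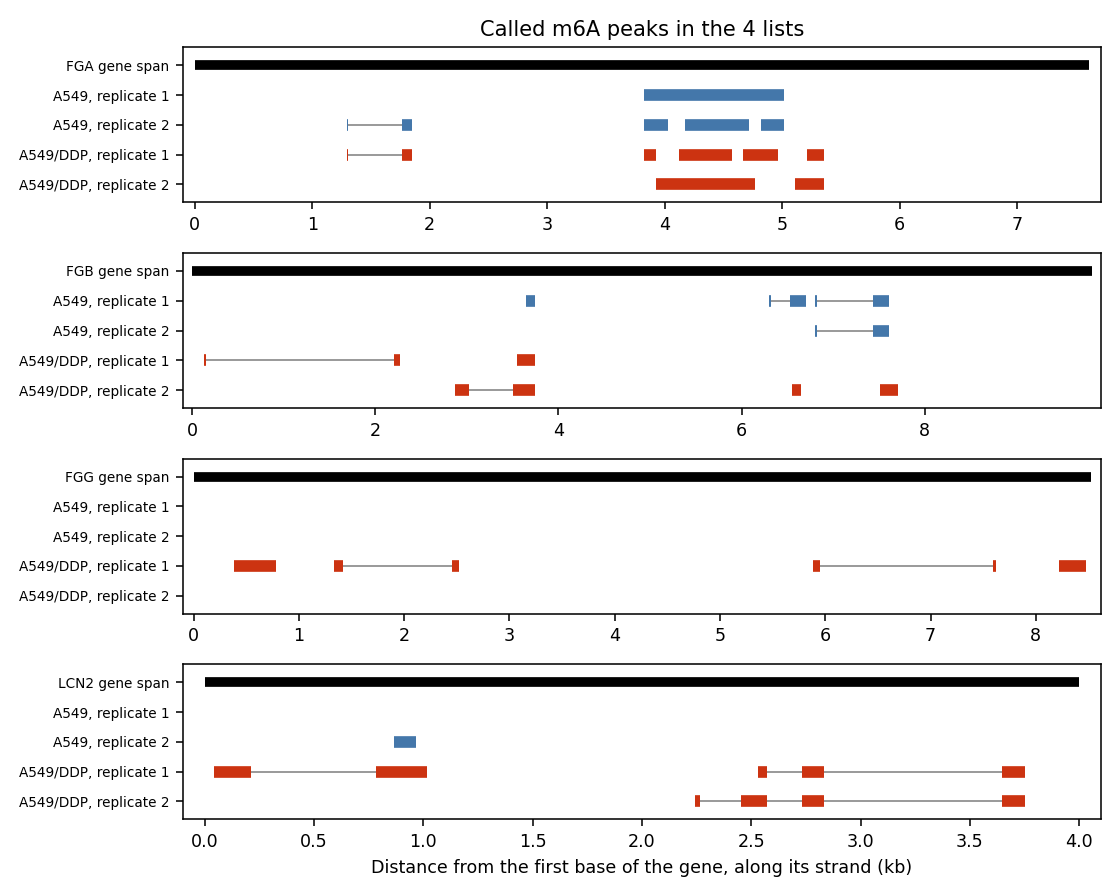
Called m6A peaks of FGA, FGB, FGG and LCN2 in each list, drawn as distance in kb from the first base of the gene along its strand, with thick bars for exon blocks, thin lines joining the blocks of 1 peak and a black bar for the gene span. The bars of FGA near 4 to 5 kb are present in all 4 lists, and those of FGG in A549/DDP replicate 1 only.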

How the data were processed

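The inputs and m6A-seq peak lists of A549 and A549/DDP were used, with groups and replicate numbers from the sample labels, which for the A549 m6A-seq libraries are exchanged against the file names. YTHDF1 RIP-seq was not analysed here. The authors deposited, for each input, RSEM expected counts (estimated, not normalized), TPM and FPKM (scaled by the authors for length and depth) and transcript lengths per gene. The submitters' processing notes name STAR, RSEM, bedtools and hg38. For each m6A-seq library they deposited called peaks with exon blocks, gene and a p-value, and the peak caller is not given in the sources used here. All the p-values in the deposited lists are the authors', and whether they are adjusted is not stated. Symbols were matched for 56948 of 58037 identifiers.

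After rounding of the expected counts, genes were filtered by filterByExpr and libraries scaled by TMM. The test was that of edgeR 4.0.16 in R 4.3.3 (glmQLFit, glmQLFTest, 2 A549 against 2 A549/DDP inputs, Benjamini-Hochberg adjustment over 16406 genes, threshold 0.05). Standard errors are approximate, from the log2 fold change and edgeR's F statistic. The fits were run on simulated data with a smaller spread between libraries than these inputs had. False calls at the spread of these inputs were not checked. DESeq2 1.42.0, limma 3.58.1 on logged FPKM and TPM (pseudocount 1, or 0.1), other scalings and filters, a replicate block, a second pair of A549 inputs of 855034 and 982036 counts and leaving out each library were alternatives. Within a list, called genes were named, at most the 6 with the largest change, with a set of regulators named whatever their value, the 5 nearest patterns and the neighbours of each member. The members and lists were chosen with earlier results of these data known. Some named genes and a motif are not reported here. Counts of HP, SERPINA3 and CP include fractions of reads shared with other genes.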

Additional observations from a re-analysis of the deposited data

Results flagged for a closer look

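The labels of the second pair of A549 inputs differ from those of the first pair by a full stop and name no experiment. This pair entered none of the main comparisons above and was used only in the alternative settings. It held 855034 and 982036 expected counts, of which 75.2% and 73.9% were mitochondrial. Even so, some members had more than 3 counts there. FGB had 16.0 expected counts in replicate 1 of this pair, and FGG and C3 had 4 each in replicate 2. FGB had 2.00 counts in replicate 2. CFB, SERPINA1, SERPINA3, LCN2 and HP had 0 in both libraries, which at 3 counts allows up to 14.2 and 11.7 CPM in replicates 1 and 2 when only counts outside the mitochondrial genes are taken as the total. These limits cover counting error only.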

How the results depend on the processing

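Of 138 alternative values of the members' log2 fold changes, 121 kept their sign and their side of the threshold. FGA, FGG, CP, C3 and LCN2 did so under all 14 alternatives each, but their sizes moved, with 3.18 to 4.70 for FGA, 2.11 to 3.65 for FGG, 3.92 to 5.27 for CP and 1.96 to 4.26 for C3. With the second pair FGG was at 2.11, C3 at 4.26 and LCN2 at 11.39, the last over a group at 0 counts, where the value depends on the prior count. FGB was not called with both A549 pairs (2.09), and CFB was not called with the second pair (11.54) or without A549/DDP replicate 1 (2.16). HP changed sign with the replicate block (-0.94), with limma on log2(FPKM + 1) (-0.01), log2(TPM + 1) (-0.28) and log2(TPM + 0.1) (-1.56), and without A549/DDP replicate 1 (-8.29). SERPINA1 did so without A549/DDP replicate 1 (-1.19), and SERPINA3, which ran from -1.12 to 0.76 when 1 library was left out, without A549 replicate 1 (0.76) and with the second pair (7.56), where the last value rests on 0 counts and depends on the prior count. HP and SERPINA1 were called higher with no filter beyond 1 count (1.82 and 1.89), without A549 replicate 1 (2.92 and 2.89) and without A549/DDP replicate 2 (2.82 and 2.81). The causes were not tested.

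Over the genes tested, deviations of same-numbered libraries had a correlation of 0.021. A value over all genes cannot settle whether the replicate numbers pair the samples for single genes. With the replicate block 7 members were called, 6 liver-type genes in place of 3, and 13 complement genes (12 higher and 1, CD59, lower) in place of 10. CD59 was also called lower with DESeq2, no filter beyond 1 count, at least 10 counts, the second pair and without A549 replicate 2. Regulators called numbered 16 in the main analysis, 10 with log2(TPM + 1), 8 with log2(TPM + 0.1), 10 with the second pair and 8 with both pairs. Complement genes called numbered 6 with both pairs. Coagulation genes called numbered 11 with DESeq2 and 4 with each of the 3 limma fits and with both pairs, in place of 7. Liver-type genes called numbered 6 with DESeq2, 8 with no filter beyond 1 count, 6 with at least 10 counts in every library, 1 with the second pair and 5 to 14 when 1 library was left out. Clade A serpins called numbered 0 in the 3 limma fits, with at least 10 counts (none left to test), with the second pair and without A549/DDP replicate 2, and 0 to 1 when 1 library was left out.

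With the second pair the share of FGA differed by 20.6 points and that of FGG by -15.5 points. Members with lengths without overlap numbered 6 to 9 when 1 library was left out, with fewer libraries to overlap. Among all genes tested, the share without overlap was 58.1% without A549/DDP replicate 1, against 30.5% in the main comparison. This share is not given for leaving out any other library, so nothing is read from the higher counts of members. With peaks at p at or below 1e-05, 0 members had a peak in both lists of either line and 0 regions were shared. With lists of 10661 peaks each, 0 members had peaks in both A549 lists and 1 in both A549/DDP lists. With 2 libraries a line, differences near the replicate spread were not detectable.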
